A study of Mus musculus with 9 samples.

Results

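Small nucleolar RNAs and the related small RNAs of Cajal bodies were examined in the spinal cord of OC mutant mouse embryos. The members are the genes whose symbol begins with Snord, Snora or Scarna and which have an array feature assigned to that symbol alone. There were 78 such genes among the 22184 genes measured, namely 47 Snord, 26 Snora and 5 Scarna genes. RefSeq types 72 of them as snoRNA, the 5 Scarna genes as guide RNA and Snord73b as snRNA, so symbols and annotation name the same kind of RNA for all but that gene. Members were selected on the symbol, and a gene with several features was read from the one whose mean over all 9 arrays was highest; no member was left out for a low value. The family itself was chosen by its log2 fold change between these same groups, since earlier results of these data had shown it lower in the mutants, so the counts and differences below describe it and are not independent support for that direction.

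Whole spinal cords were dissected at e11.5, and their total RNA was read on MoGene 2.0 ST arrays (Affymetrix). The groups were 4 Hnf6-/-;Oc2-/- (OC mutant) embryos and 5 embryos labelled only as controls, whose genotype and strain are not given further in the sources used here. The mutants carry null alleles of Hnf6 (Onecut1) and Oc2 (Onecut2), and the study describes that they also lose Oc3 (Onecut3) in the developing spinal cord. Each array was taken as 1 embryo, the study asked which genes act downstream of these transcription factors, and the fifth mutant counted in the series description is not analysed here. The whole cord was used, so fewer cells of a type and less RNA per cell cannot be told apart.

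Small nucleolar RNAs are short noncoding RNAs that base-pair with ribosomal RNA and direct its chemical modification. Box C/D RNAs (Snord) guide methylation of the ribose and work in a particle with fibrillarin, Nop56, Nop58 and Snu13. Box H/ACA RNAs (Snora) guide the change of uridine to pseudouridine, in a particle with Dkc1, Nhp2, Nop10 and Gar1. Scarna RNAs carry the same kinds of box, reside in Cajal bodies and guide modification of the spliceosomal RNAs. In mammals most of these RNAs have no promoter of their own: they are cut out of the introns of a host transcript, which is often the pre-mRNA of a ribosomal protein or translation factor, or a noncoding RNA such as those of the Snhg genes.

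The arrays and the dissections were checked on genes outside the family. Array medians lay between 5.23 and 5.31 on the log2 scale, and pairs of arrays correlated at 0.974 to 0.982 within OC mutants and 0.981 to 0.988 within controls. The log2 fold change of Onecut2 was −0.84 (SE 0.16) and that of Onecut3 −0.81 (SE 0.12), with every OC mutant array below every control array for both. Onecut1 gave −0.11 (SE 0.13), and whether its feature lies in the deleted part of the gene is not known. Neither Onecut2 nor Onecut3 passed the adjusted threshold (adjusted p = 0.127 and 0.0624, limma). Of the neural tube markers, 12 of 13 were measured, and their mean level ran from 7.87 to 7.94 in OC mutants and from 7.76 to 8.16 in controls.

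The great majority of the members were lower in OC mutant than in control spinal cords. The log2 fold change was negative for 72 of 78 members (92.3%), against 48.7% of all genes. Its median was −0.52, or 0.696-fold, with the middle part of the members between −0.83 and −0.25 (quartiles) and the whole range between −1.36 and 0.44. Over all genes the median was 0.00. Each member was tested with limma across all genes, and 47 members (60.3%) were lower at an unadjusted p under 0.05, against a background of 4.93% of all genes. A single member, Scarna8, was higher at that p, where the background is 4.81%. No member passed after Benjamini-Hochberg adjustment over all genes, where 0.0225% of all genes did, and the smallest adjusted p of a member was 0.0680 (Snord35b). For 21 members (26.9%) every OC mutant array lay below every control array, against 1.79% of all genes, and no member had the reverse order, against 2.15%.

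The box C/D class held most of these members. Of the Snord genes 44 of 47 had a negative log2 fold change, 32 (68.1%) were lower at an unadjusted p under 0.05, and 16 (34.0%) had groups that did not overlap. Their median log2 fold change was −0.63, or 0.645-fold. Of the Snora genes 24 of 26 were negative, 11 (42.3%) were lower at that p and 2 (7.69%) did not overlap, with a median of −0.38, or 0.769-fold. Of the 5 Scarna genes 4 were lower at that p and 3 did not overlap, with a median of −0.51, or 0.703-fold. Whether the classes differ in their change was not put to a test over members. Within arrays, the mean log2 signal of the Snord genes minus that of the Snora genes was 0.29, 0.51, 0.47 and 0.39 on the OC mutant arrays, against 0.48, 0.60, 0.72, 0.43 and 0.62 on the control arrays. These ranges overlap, so the gap between the classes was smaller in mutants by 0.16 on average without separating the groups.

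Averaged over each class, the OC mutant arrays lay low with 1 exception, OC mutant 3. The mean log2 signal of the 47 Snord genes was 7.80, 7.82, 8.49 and 7.98 on OC mutant arrays 1 to 4, against 8.94, 8.64, 8.44, 8.51 and 8.55 on control arrays 1 to 5. OC mutant 3 thus lay above control 3 and just under control 4, while the other 3 mutants lay below every control. For the 26 Snora genes the means were 7.51, 7.31, 8.02 and 7.60 in OC mutants, against 8.46, 8.04, 7.72, 8.08 and 7.93 in controls. Here OC mutant 3 lay above controls 3 and 5. The 5 Scarna genes averaged 7.85, 7.84, 8.42 and 7.82 in OC mutants, against 8.67, 8.41, 8.33, 8.46 and 8.42 in controls, and OC mutant 3 again lay within the control range. The class means were 8.02 ± 0.32 against 8.62 ± 0.20 for Snord, 7.61 ± 0.30 against 8.05 ± 0.27 for Snora and 7.98 ± 0.29 against 8.46 ± 0.13 for Scarna (mean ± SD, 4 OC mutant against 5 control arrays).

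**Figure D1:**
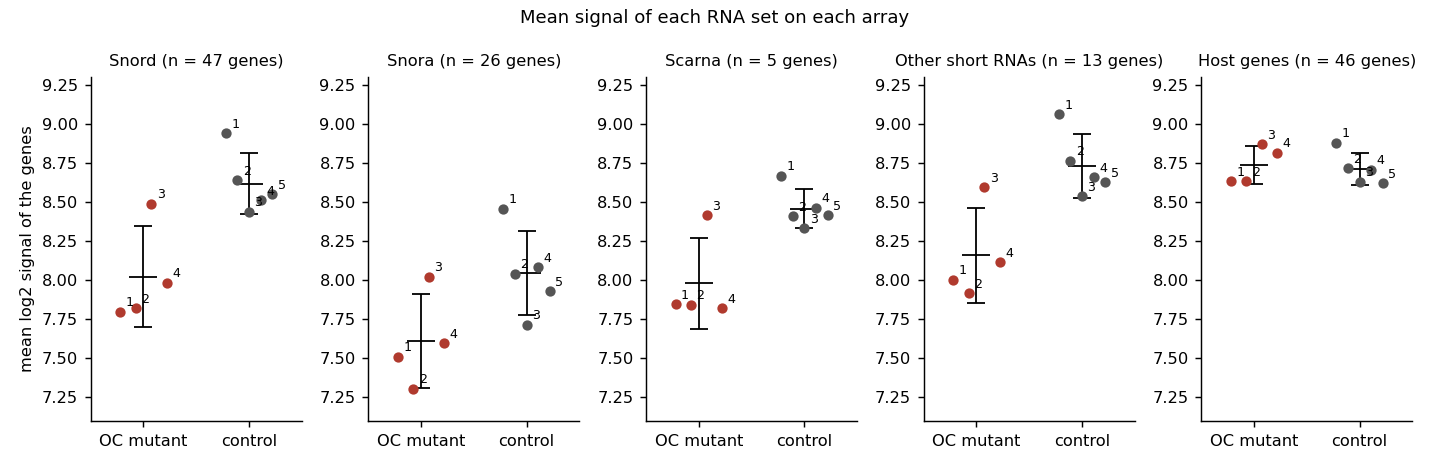
Mean log2 signal of the genes of each set (vertical axis) on each array, numbered by replicate, for OC mutant (left) and control (right), with bars for the mean and SD of the arrays. The Snord means lie between 7.80 and 8.49 in OC mutants and between 8.44 and 8.94 in controls, while the host genes lie between 8.63 and 8.87 in OC mutants and between 8.62 and 8.88 in controls.

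The members moved together from array to array. OC mutant 3 had the highest value among the mutants for 65 of 78 members, and control 1 the highest among the controls for 65 of 78. At the other end, OC mutant 2 was the lowest mutant for 36 members and OC mutant 1 for 28, and control 3 was the lowest control for 43. All 4 OC mutant arrays lay below every control array for 21 members, 3 of the 4 for 26, 2 for 12, 1 for 9, and none for 10. The members also varied more than other genes: the median SD was 0.397 in OC mutants and 0.268 in controls, against 0.180 in OC mutants and 0.156 in controls over all genes. The SD was larger in OC mutants for 62 of 78 members, 40 of them Snord genes.

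More members passed without OC mutant 3 than in any other setting. That array was the highest mutant for 65 of 78 members, so leaving it out lowers their mutant means by construction. Without it, 25 members (among 44 genes in all) passed the adjusted threshold, 45 members did not overlap between groups, against 3.85% of all genes, and the medians were −0.89 for Snord, −0.50 for Snora and −0.63 for Scarna. Without control 1, whose values were the highest, the median over all members was −0.48, and none passed the adjusted threshold. At an unadjusted p under 0.05, 42 members were lower, against 4.46% of all genes.

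Markers of tissues next to the cord also differed between these arrays. The mean level of the blood markers (3 of 5 measured) ran from 8.65 to 10.11 in OC mutants, with its highest value in OC mutant 3, and from 9.23 to 10.12 in controls, with its highest value in control 1. The corresponding ranges were 4.82 to 5.73 in OC mutants against 5.27 to 6.0003 in controls for muscle (5 of 5), and 5.77 to 6.98 against 5.99 to 7.67 for mesenchyme and cartilage (5 of 5). For neural crest and glia (3 of 5) they were 6.05 to 6.98 against 6.39 to 7.36, for sensory ganglion (4 of 6) 6.40 to 6.498 against 6.60 to 6.87, for endothelium (4 of 4) 7.83 to 7.95 against 7.56 to 7.98, and for macrophages (4 of 4) 5.44 to 5.70 against 5.53 to 5.72. The highest mutant was OC mutant 3 for muscle and ganglion too, but OC mutant 4 for mesenchyme, neural crest, endothelium and macrophages. The highest control was control 2 for ganglion and macrophages, and control 1 for the other lists. Of these lists only that of the ganglion had means that did not overlap. Array signal has no true zero, so the absence of a tissue cannot be read from it, and the part of these tissues in the difference of the snoRNAs was not tested.

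**Figure D2:**
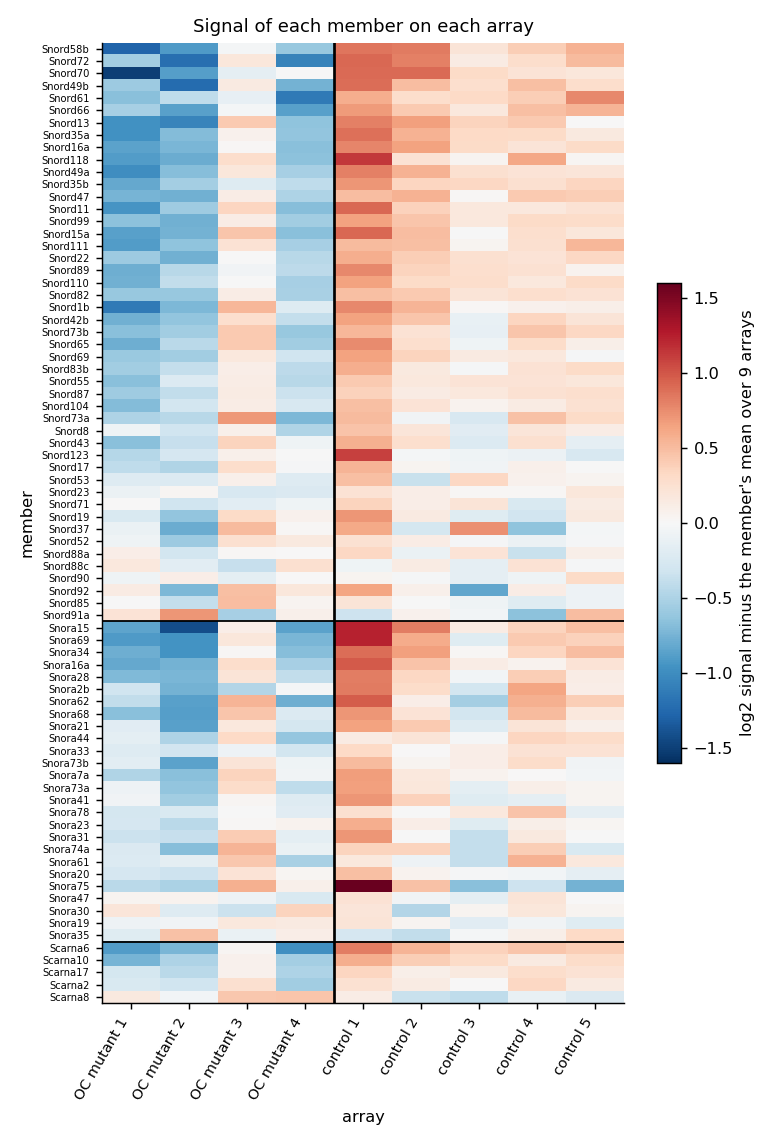
Each row is a member and each column an array, OC mutants to the left of the controls; the colour gives the log2 signal minus that member's mean over the 9 arrays, with blue below and red above it. The columns of OC mutants 1, 2 and 4 are blue for most members, OC mutant 3 is pale, and control 1 is the darkest red, the highest control for 65 of 78 members.

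Among the box C/D RNAs, Snord58b had the most negative log2 fold change. It lies in Rpl17, a gene for a protein of the large ribosomal subunit. Its log2 values were 7.66, 8.03, 8.91 and 8.33 in OC mutants, against 9.80, 9.77, 9.15, 9.33 and 9.50 in controls. The highest mutant, OC mutant 3, stayed below the lowest control, and the log2 fold change was −1.28 (SE 0.22, limma adjusted p = 0.106), or 0.412-fold.

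Snord70 lies in Nop58, which codes for a core protein of the box C/D particle itself. It read 6.17, 6.80, 7.53 and 7.67 in OC mutants, against 8.59, 8.59, 7.99, 7.89 and 7.86 in controls. Here OC mutants 3 and 4 came near the lowest controls without reaching them, and the log2 fold change was −1.14 (SE 0.29, adjusted p = 0.297). Its neighbour in the same host, Snord11, gave −0.84 (SE 0.24), with OC mutant 3 inside the control range.

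Snord49b, Snord49a and Snord65 share the noncoding host 2410006H16Rik. Snord49b read 9.996, 9.35, 10.73 and 9.82 in OC mutants, against 11.48, 11.08, 10.85, 11.07 and 10.86 in controls, a log2 fold change of −1.09 (SE 0.23, adjusted p = 0.197). Snord49a read 8.86, 9.17, 10.04 and 9.32 in OC mutants, against 10.65, 10.40, 10.10, 10.07 and 10.04 in controls, a log2 fold change of −0.91 (SE 0.21, adjusted p = 0.253). For both the lowest control was above OC mutant 3 by a small margin only. Snord65 gave −0.61 (SE 0.23) and its groups overlapped.

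Snord61, in the gene for the nuclear RNA-binding protein Rbmx, had one of the clearer separations. Its values were 9.65, 9.91, 10.19 and 9.19 in OC mutants, against 10.90, 10.60, 10.65, 10.71 and 11.10 in controls. The highest mutant lay well below the lowest control, and the log2 fold change was −1.06 (SE 0.18, adjusted p = 0.102). Snord66 lies in Eif4g1, the scaffold of the translation initiation complex. It read 7.53, 7.19, 8.03 and 7.19 in OC mutants, against 8.74, 8.48, 8.23, 8.54 and 8.61 in controls, with a log2 fold change of −1.04 (SE 0.17, adjusted p = 0.0906), or 0.487-fold.

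Snord35a and Snord16a sit in ribosomal protein genes, Rpl13a and Rpl4. Snord35a read 9.05, 9.33, 10.10 and 9.39 in OC mutants, against 10.91, 10.59, 10.35, 10.33 and 10.18 in controls, a log2 fold change of −1.005 (SE 0.20, adjusted p = 0.188). Snord16a read 9.69, 9.82, 10.57 and 9.88 in OC mutants, against 11.32, 11.19, 10.85, 10.75 and 10.84 in controls, a log2 fold change of −1.002 (SE 0.18, adjusted p = 0.124). The values came to 0.498-fold and 0.499-fold, and in both OC mutant 3 was the mutant nearest to the controls. Snord35b was named after its values were seen because its adjusted p of 0.0680 was the smallest of any member. It read 7.67, 7.94, 8.28 and 8.07 in OC mutants, against 9.19, 8.83, 8.81, 8.73 and 8.83 in controls, and its log2 fold change was −0.89 (SE 0.13).

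Snord22 had the strongest array signal of the Snord genes. Its RNA is needed for maturation of small-subunit ribosomal RNA in Xenopus, and it is cut from the noncoding Snhg1 transcript. Its values were 11.18, 10.998, 11.76 and 11.32 in OC mutants, against 12.34, 12.16, 12.02, 11.98 and 12.10 in controls. The groups did not overlap, and the log2 fold change was −0.80 (SE 0.14, adjusted p = 0.116), or 0.573-fold. Snord110, in Nop56, gave −0.76 (SE 0.15) with groups that did not overlap, and Snord111, in the splicing factor gene Sf3b3, gave −0.83 (SE 0.20) with OC mutant 3 inside the control range.

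A further 5 Snord genes had groups that did not overlap, and they are given here after their values were seen. Snord99, in Snhg12, read 10.33, 10.22, 11.10 and 10.43 in OC mutants, against 11.63, 11.44, 11.16, 11.30 and 11.27 in controls, a log2 fold change of −0.84 (SE 0.17). Snord82, in the nucleolin gene Ncl, read 10.70, 10.70, 11.43 and 10.79 in OC mutants, against 11.78, 11.72, 11.51, 11.58 and 11.53 in controls, a log2 fold change of −0.72 (SE 0.15). In both, 3 mutants formed a tight low group and OC mutant 3 lay just under the controls. Snord87, in Snhg6, gave −0.53 (SE 0.13), Snord55 gave −0.55 (SE 0.14) and Snord89 is taken up with the genes that have no host.

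In another set of Snord genes OC mutant 3 alone kept the groups from separating. These too were chosen after their values were seen. Snord72, in the ribosomal protein gene Rpl37, read 6.92, 6.26, 7.66 and 6.41 in OC mutants, against 8.399, 8.28, 7.61, 7.76 and 7.99 in controls, a log2 fold change of −1.19 (SE 0.26, adjusted p = 0.219). Snord47, the member in the noncoding gene Gas5, read 10.16, 10.13, 11.02 and 10.41 in OC mutants, against 11.39, 11.46, 10.92, 11.33 and 11.29 in controls, a log2 fold change of −0.85 (SE 0.18, adjusted p = 0.197). Here OC mutant 3 passed only control 3, the lowest control. Snord15a, in Rps3, read 7.57, 7.68, 8.88 and 7.77 in OC mutants, against 9.35, 8.93, 8.43, 8.71 and 8.62 in controls, a log2 fold change of −0.83 (SE 0.26, adjusted p = 0.366).

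The 3 Snord genes with a positive log2 fold change had weak signals. Snord91a, in the ribosome maturation gene Tsr1, read 4.25, 4.74, 3.49 and 4.10 in OC mutants, against 3.69, 4.10, 3.98, 3.37 and 4.51 in controls, a log2 fold change of 0.21 (SE 0.26). Snord85 read 4.04, 3.66, 4.54 and 4.09 in OC mutants, against 4.25, 4.04, 3.98, 3.85 and 3.97 in controls, a log2 fold change of 0.06 (SE 0.15). Snord92, in the pre-rRNA processing gene Wdr43, gave 0.04 (SE 0.28). The groups of all these overlapped widely, and leaving out single arrays turned the sign of Snord85 and Snord92. Small changes were not confined to weak signals, as 2 genes chosen after their values were seen show. Snord88c, with a mean signal of 7.30, gave −0.06 (SE 0.14), and Snord53, with a mean signal of 7.95, gave −0.25 (SE 0.15).

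Among the box H/ACA RNAs, Snora15 had the most negative log2 fold change of all members. It lies in Cct6a, which codes for a subunit of the cytosolic chaperonin. Its values were 8.59, 8.01, 9.54 and 8.58 in OC mutants, against 10.66, 10.26, 9.56, 9.79 and 9.91 in controls. OC mutant 3 and control 3 nearly met, and the log2 fold change was −1.36 (SE 0.29, adjusted p = 0.197), or 0.390-fold. Snora33, in the ribosomal protein gene Rps12, had the strongest signal of all members and a tight spread. It read 12.33, 12.23, 12.46 and 12.25 in OC mutants, against 12.87, 12.55, 12.65, 12.78 and 12.77 in controls, a log2 fold change of −0.40 (SE 0.09, adjusted p = 0.241). A second, much dimmer feature of Snora33 gave −0.26 (SE 0.23).

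Large but overlapping differences were seen in 2 more Snora genes, chosen after their values were seen. Snora34, in Kansl2, a gene of the NSL histone acetyltransferase complex, read 9.80, 9.63, 10.60 and 9.91 in OC mutants, against 11.48, 11.24, 10.60, 10.92 and 11.08 in controls. OC mutant 3 and control 3 were level, and the log2 fold change was −1.08 (SE 0.21, adjusted p = 0.156). Snora69, in the ribosomal protein gene Rpl39, read 7.07, 7.02, 8.16 and 7.25 in OC mutants, against 9.21, 8.58, 7.79, 8.404 and 8.35 in controls, a log2 fold change of −1.09 (SE 0.28, adjusted p = 0.306).

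The remaining Snora genes overlapped between groups. Snora30, in the chromatin remodelling gene Srcap, read 7.26, 6.86, 6.72 and 7.43 in OC mutants, against 7.26, 6.60, 7.11, 7.25 and 7.12 in controls. Its log2 fold change was −0.00, with an interval of −0.38 to 0.38 (95%, limma), so a change of the size of the Snora median lies at its edge. Snora35, in the serotonin receptor gene Htr2c, gave 0.12 (SE 0.17), and Snora19, in the translation initiation gene Eif3a, gave 0.08 (SE 0.11) on 2 features with identical values. Snora75, in the nucleolin gene Ncl, had the largest SE of any member: its values were 7.16, 7.09, 8.17 and 7.68 in OC mutants, against 9.18, 8.06, 6.94, 7.27 and 6.85 in controls, so its log2 fold change of −0.13 carried an SE of 0.43.

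Of the Cajal body RNAs, Scarna6 gave the clearest difference. It lies in the autophagy gene Atg16l1 and read 6.55, 6.72, 7.48 and 6.46 in OC mutants, against 8.27, 7.99, 7.82, 7.89 and 7.84 in controls. The groups did not overlap, and the log2 fold change was −1.16 (SE 0.19, adjusted p = 0.0906), or 0.448-fold. Scarna10, in the condensin gene Ncapd2, read 8.85, 9.10, 9.66 and 9.04 in OC mutants, against 10.17, 9.99, 9.90, 9.73 and 9.89 in controls, a log2 fold change of −0.77 (SE 0.15, adjusted p = 0.170). Scarna17, in a noncoding gene, gave −0.51 (SE 0.12, adjusted p = 0.241) and −0.48 (SE 0.11) on its other feature.

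Scarna2 and Scarna8 completed the class. Scarna2 read 8.46, 8.38, 8.95 and 8.15 in OC mutants, against 8.94, 8.84, 8.70, 9.03 and 8.85 in controls, a log2 fold change of −0.39 (SE 0.14), and OC mutant 3 lay inside the control range. Scarna8 was the only member higher at an unadjusted p under 0.05. It lies in Haus6, which codes for a part of the augmin complex of the spindle, and read 5.72, 5.52, 5.99 and 6.0002 in OC mutants, against 5.68, 5.21, 5.15, 5.44 and 5.33 in controls. Its log2 fold change was 0.44 (SE 0.14, adjusted p = 0.352), and control 1 lay above OC mutant 2.

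**Figure D3:**
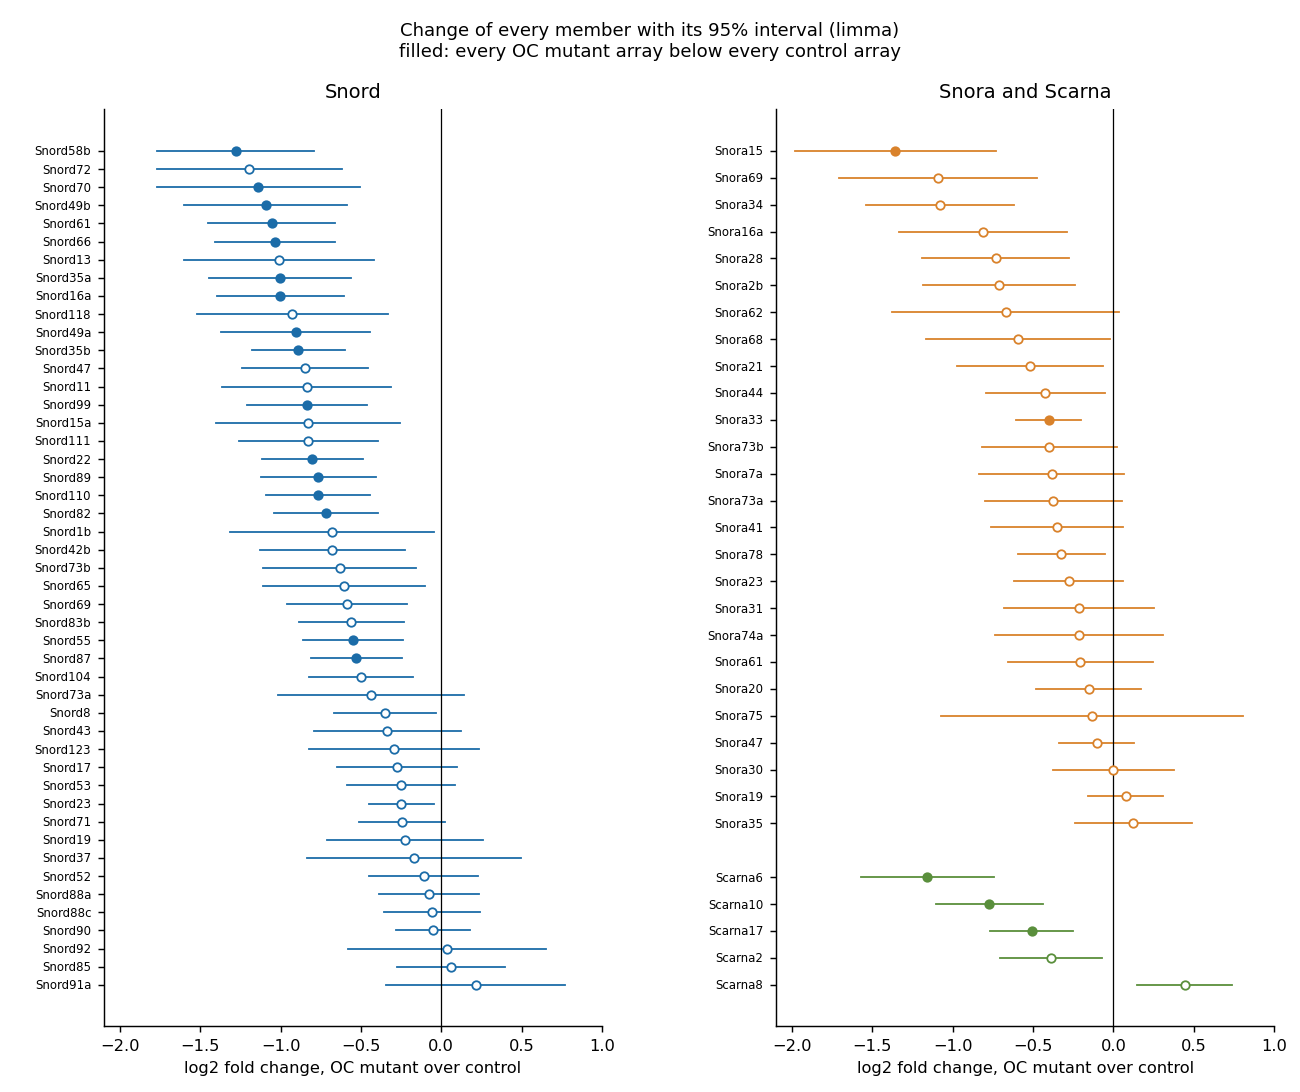
Log2 fold change of each member, OC mutant over control (horizontal axis), with its 95% interval from limma, Snord at left and Snora and Scarna at right; filled points mark members whose OC mutant arrays all lie below every control array. Of the 78 points 72 lie left of 0, and 21 are filled.

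The change was set against the host genes. Of the 78 members 74 lay within the span of an annotated gene, and 46 of the 60 different hosts were measured. The hosts were not lower as a group: 19 had a negative and 27 a positive log2 fold change, with a median of 0.08 and a range of −0.38 to 0.38. At an unadjusted p under 0.05, 1 host was lower (2.17%, against 4.93% of all genes), namely Rpl3 (−0.38, SE 0.13). Another 2 were higher, where the share of all genes was 4.81%, namely Snhg12 (0.21, SE 0.09) and Sf3b3 (0.20, SE 0.08). No host passed after adjustment. Their mean signal by array was 8.63, 8.63, 8.87 and 8.82 in OC mutants, against 8.88, 8.72, 8.63, 8.71 and 8.62 in controls.

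Host by host, 56 of the 60 members with a measured host had a lower log2 fold change than that host. The count was 32 of 33 for Snord, 22 of 24 for Snora and 2 of 3 for Scarna, and the median of member minus host was −0.43. The hosts of 2 of these members were read from features in the lowest of 3 equal classes of signal (up to 4.63), Snhg9 at a mean of 3.69 in OC mutants and 3.73 in controls and Rpl17 at 3.70 in OC mutants and 3.58 in controls, and such dim features can show little of a lower level. Without them the count was 54 of 58. The exceptions were Scarna8 in Haus6, Snora31 in Tpt1, Snora47 in Zbed3 and Snord43 in Rpl3. Across these 60 members the correlation between the log2 fold changes of member and host was weak (Spearman rho = 0.17, Pearson r = 0.10), a description only, since the values come from the same arrays and 25 members share a host with another.

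**Figure D4:**
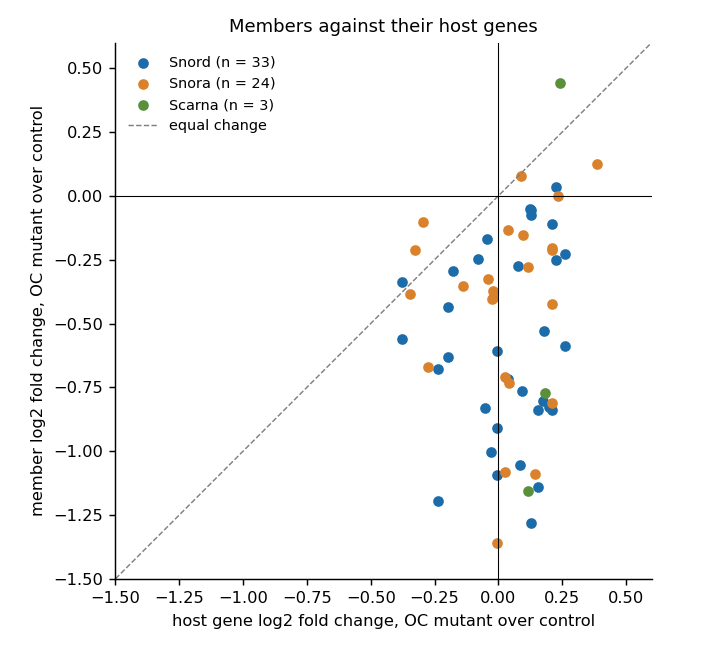
Log2 fold change of each member (vertical axis) against that of its host gene (horizontal axis), OC mutant over control, for the 60 members with a measured host; the dashed line marks equal change. All but 4 points lie under the line, and the hosts spread between −0.38 and 0.38.

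The members were also counted by the kind of host. The 18 members in ribosomal protein genes were all negative, with a median log2 fold change of −0.65. Of these, 14 (77.8%) were lower at an unadjusted p under 0.05, against 4.93% of all genes. The 11 measured ribosomal protein hosts themselves had a median of −0.20, and 9 of them were negative. The 21 members in noncoding hosts were also all negative, 14 (66.7%) at that p, with a median of −0.50, while the median of their 9 measured hosts was 0.18. The 35 members in other protein-coding genes were mixed, with 29 negative and a median of −0.25. At that p 15 (42.9%) were lower and 1 was higher, where 4.81% of all genes were higher. The median of the 26 measured hosts of these members was 0.09. The groups differed in array signal as well: the median signal of the members was 8.71 in ribosomal protein genes, 9.35 in noncoding hosts and 7.45 in other protein-coding genes, and all 6 members with a positive value were in this last group at signals under 6. The part of signal in these differences was not tested, and no test between the groups was made.

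The 4 members outside any annotated gene were lower as well, although OC mutant 3 reached the control range in 3 of them. They were named after their values were seen. Snord118 (U8), which is needed for maturation of large-subunit ribosomal RNA in Xenopus, read 5.75, 5.85, 6.93 and 5.99 in OC mutants, against 7.77, 6.88, 6.69, 7.27 and 6.68 in controls, a log2 fold change of −0.93 (SE 0.27). Snord13, which guides acetylation of small-subunit ribosomal RNA in human cells, read 7.38, 7.29, 8.76 and 7.71 in OC mutants, against 9.15, 9.0005, 8.70, 8.77 and 8.35 in controls, a log2 fold change of −1.01 (SE 0.27). In both, OC mutants 1, 2 and 4 lay below every control. Snord89 gave −0.77 (SE 0.16) with groups that did not overlap, and Scarna2 is described above.

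Members within the span of 1 host gene had different values. The 4 RNAs of Snhg12 had log2 fold changes of −0.84 for Snord99, −0.81 for Snora16a, −0.43 for Snora44 and −0.21 for Snora61 (SE 0.17 to 0.24), while the host gave 0.21. Snord99 and Snora16a, of different classes, thus had nearly the same value. The Ncl gene gave −0.72 (SE 0.15) for Snord82 and −0.13 (SE 0.43) for Snora75, and Kansl2 gave −1.08 (SE 0.21) for Snora34 and −0.71 (SE 0.22) for Snora2b. The pair in Snhg3, the U17 RNAs Snora73a and Snora73b that take part in small-subunit rRNA processing, gave −0.37 and −0.40 (SE 0.20 and 0.19). These 2 are near-identical copies, so their features may read each other's RNA. In Wdr43, Snord53 gave −0.25 (SE 0.15) and Snord92 0.04 (SE 0.28), and in 2410002F23Rik, Snord88a gave −0.08 and Snord88c −0.06 (SE 0.14 each). No difference between members of a host was tested.

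Many genes for ribosomal proteins have a run of pyrimidines at their start site, and the start windows of host genes were searched for such a run. The windows of 4 noncoding hosts are shown because each holds one at or near the annotated start. They come from RefSeq with assembly GRCm38.p6 and hold 15 bases before and 15 bases from the annotated start of the hosts of Snord22 (Snhg1), of Snord99 and 3 Snora genes (Snhg12), of Snord47 (Gas5) and of Snord49a, Snord49b and Snord65 (2410006H16Rik), all on the plus strand, at chr19:8723472-8723501, chr4:132308663-132308692, chr1:161035151-161035180 and chr11:62602862-62602891. Capitals mark the run of at least 6 C or T in a row that lies within 10 bases of the start.
Snhg1: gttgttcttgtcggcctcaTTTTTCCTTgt
Snhg12: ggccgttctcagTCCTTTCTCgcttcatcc
Gas5: agccgccatctcagCCTTTCggagctgtgc
2410006H16Rik: tcacgcgccgTCTTTCTCTgcggccatcat

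Such a run on the gene's strand was found in 24 of the 50 start windows of host genes (48%), against 29.2% of all 32851 windows. Counted by gene, it was 22 of 46 host genes (47.8%) against 32.7% of all genes. Of the 15 noncoding hosts 11 had a window, and 11 of their 13 windows held a run. A further annotated start of Gas5 has none. The letters ATTGAT, a core bound by Onecut proteins, were searched on both strands of the 300 bases around each start, and they stood in 0 of the 50 host windows, against 7.54% of all windows. ATTGAT holds A and G and so can never lie whole inside a pyrimidine run, and the matches describe the sequence only.

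The change was larger where the array signal was stronger. All genes were split into 3 equal classes by mean signal, with bounds at 4.63 and 6.91. In the top class, 59 of 59 members were negative, 44 of them at an unadjusted p under 0.05 against 6.63% of all genes of that class, with a median log2 fold change of −0.67 against 0.01 for all genes of the class. In the middle class, 13 of 17 were negative with a median of −0.17, against −0.03 for all genes there, and the 2 members of the bottom class were both positive. Within the top class the medians were −0.77 for 36 Snord, −0.40 for 19 Snora and −0.64 for 4 Scarna genes. Across the 78 members the correlation of signal and log2 fold change was negative (Spearman rho = −0.60, Pearson r = −0.58), given as a description, since the same arrays supply both measures.

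**Figure D5:**
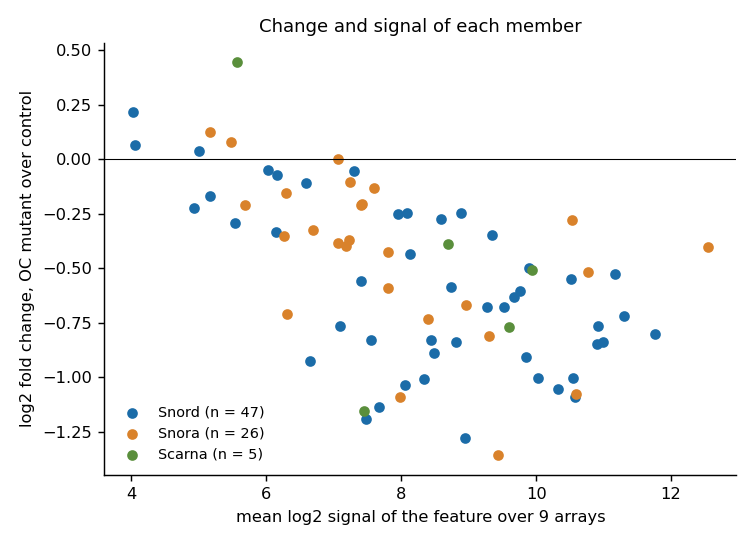
Log2 fold change of each member, OC mutant over control (vertical axis), against the mean log2 signal of its feature over the 9 arrays (horizontal axis), coloured by class. The 6 members above 0 lie at signals under 6, and the 13 members at −1 or below lie at signals above 7.

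Snord and Snora members were also compared by annotated length, each class split at its median. Annotated lengths ran from 48 to 221 bases for Snord (median 68), from 56 to 205 for Snora (median 118.5) and from 61 to 248 for Scarna (median 71). The 26 Snord genes up to the median length had a median log2 fold change of −0.70, and the 21 longer ones −0.56. For Snora the medians were −0.35 for 13 shorter and −0.39 for 13 longer genes. No test of length was made, and whether the annotated length is that of the full RNA was not checked.

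A list of other short RNA genes, picked by symbol (Rny, Rnu, Rn7s, Rpph1, Rprl, Terc, Vaultrc and n-R5s), had negative values on the same arrays too. The list leaves out microRNA genes (325 of 478 positive) and 8 genes that RefSeq types as snoRNA under other symbols (4 positive). All 13 measured genes of the list, the box C/D RNA gene Rnu3a and the telomerase RNA gene Terc among them, had a negative log2 fold change. Of these, 7 (53.8%) were lower at an unadjusted p under 0.05, against 4.93% of all genes. The median was −0.50, and 1 gene passed the adjusted threshold. Without Rnu3a and Terc, 11 of 11 were negative, 7 at that p, with the same median of −0.50. The gene that passed was Rny3, a Y RNA bound by the Ro protein. It read 8.57, 8.45, 9.27 and 8.41 in OC mutants, against 10.34, 10.07, 9.83, 10.07 and 10.07 in controls, and its log2 fold change of −1.40 (SE 0.17) had an adjusted p of 0.0290 in limma. Rny1 gave −0.60 (SE 0.14), the 5S rRNA gene n-R5s136 gave −0.66 (SE 0.15) and the RNase P RNA-like gene Rprl2 gave −0.83 (SE 0.21). The mean of the 13 genes by array was 8.003, 7.92, 8.60 and 8.12 in OC mutants, against 9.06, 8.76, 8.54, 8.66 and 8.63 in controls, which is the order of arrays seen for the Snord genes except that OC mutants 1 and 2, and controls 4 and 5, changed places. RNA integrity values are not given in the sources used here, and the part in the result of anything that acts on short RNAs as a group was not tested.

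Other short RNAs related to the snoRNAs were looked up after their values were seen. Rnu3a (U3), a box C/D RNA of pre-rRNA processing, read 5.96, 5.95, 7.79 and 6.62 in OC mutants, against 8.73, 7.57, 6.79, 7.35 and 7.005 in controls, a log2 fold change of −0.91 (SE 0.43) with overlapping groups. Terc, the telomerase RNA, which ends in an H/ACA domain, gave −0.43 (SE 0.24). Rn7sk, the RNA that holds the elongation factor P-TEFb inactive, gave only −0.14 (SE 0.07), although every OC mutant array lay below every control array. The 478 microRNA genes had a median of 0.09, on the other side of 0. Their median signal was 4.27, in the bottom class of signal, against 8.08 for the members and 8.56 for the other short RNAs. All genes of that class had a median of 0.03, and 4422 of 7395 were positive. The part of signal in this contrast was not tested.

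The genes for the proteins of the particles were not lower as a group. Of the 8 core proteins 7 were measured, 4 with a negative and 3 with a positive log2 fold change, a median of −0.03 and none at an unadjusted p under 0.05. The box C/D proteins gave 0.16 for Nop58, 0.09 for Nop56 and −0.05 for Snu13 (SE 0.11 to 0.13). The H/ACA proteins gave 0.10 for the pseudouridine synthase Dkc1, −0.17 for Nhp2, −0.24 for Nop10 and −0.03 for Gar1 (SE 0.12 to 0.17). The mean of the 7 genes was 8.66 ± 0.22 in OC mutants and 8.68 ± 0.15 in controls (SD, 4 and 5 arrays), and it was highest in OC mutant 3 (8.92) and control 1 (8.90), as for the RNAs.

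Genes that build, trim and use the particles were counted next. Of 18 genes for assembly factors and Cajal body proteins, 2 (11.1%) were lower at an unadjusted p under 0.05, against 4.93% of all genes, Pih1d1 of the R2TP assembly complex (−0.35, SE 0.11) and Coil, the Cajal body scaffold coilin (−0.18, SE 0.08). The H/ACA assembly chaperone gene Shq1 (0.33, SE 0.12) and Sart3, a factor of snRNP recycling (0.29, SE 0.11), were higher at that p (11.1%, against 4.81% of all genes). Of 17 genes of the exosome and of RNA trimming, none was lower and 4 (23.5%) were higher at that p: Exosc7 (0.42), the debranching enzyme gene Dbr1 (0.33), Zcchc7 (0.25) and the deadenylase gene Parn (0.20). Of 39 genes of nucleolar rRNA synthesis and processing, 2 were lower at that p (5.13%, close to the 4.93% of all genes), Imp4 (−0.24) and Bop1 (−0.24), both named after their values were seen. Another 6 (15.4%) were higher at that p, led by the ribosome biogenesis gene Rrs1 (0.46, SE 0.11), with Taf1a (0.25), Utp15 (0.34) and Utp20 (0.33) next by p. The medians of these lists were 0.07, 0.13 and 0.06, and no gene of them passed the adjusted threshold.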

How the data were processed

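The authors extracted total RNA from e11.5 spinal cords, labelled it with the Affymetrix WT PLUS kit and scanned MoGene 2.0 ST arrays with Expression Console. They deposited log2 signal values for 41345 features per array, with the background correction and normalization not given in the sources used here. Features were named through the platform annotation, with 23525 carrying 1 symbol, 1816 several and 16004 none listed, and 23328 were matched to RefSeq (GRCm38.p6). The brightest feature stood for a gene. Host genes were taken from RefSeq spans without regard to strand, the smallest where several overlapped (6 members). The hosts of some members are not reported here.

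Genes were tested on the log2 values with limma 3.58.1 in R 4.3.3 (lmFit and eBayes, OC mutant minus control, no covariate, prior degrees of freedom 4.47), with Benjamini-Hochberg adjustment over 22184 genes and a threshold of 0.05. Because no member passed that threshold, an unadjusted p under 0.05 was used for counts as well. P-values set the difference between groups against the spread of arrays within them, which limma moderates over all genes. The number of arrays limits the precision. The fit was tested on simulated data in which each value was drawn independently. Variation that members share on an array was not part of those data. Members named were those whose groups do not overlap (up to 8 Snord, 8 Snora and 3 Scarna by size), the 3 most positive, the brightest and the dimmest of each class, and Snord110 and Snord111. From the lists, all core proteins and the 4 genes with the smallest p were named. Members and lists were chosen with earlier results of these data known.

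The alternatives were other treatments of features and symbols, the dim part of genes left out, quantile normalization, median centring, other eBayes settings, array weights, a block for the replicate number and each array left out.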

Additional observations from a re-analysis of the deposited data

Results flagged for a closer look

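In a check of 58 groups of arrays for a single value far from the rest, 2 stood out, where chance flags about 1 in 20 groups. The mean of the Scarna genes was 8.42 on OC mutant 3, while the other 3 OC mutant arrays lay between 7.82 and 7.85. The same array was the highest mutant for 65 of 78 members. Snora30 read 6.60 on control 2, while the other 4 controls lay between 7.11 and 7.26.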

How the results depend on the processing

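Of 478 results for the 24 named members under 20 alternative settings, 448 kept their direction and side of the threshold, 16 newly passed it and 14 turned sign, the turns being in Snora30, Snord92, Snord85 and Snora35. Settings other than leaving out an array left the members' median between −0.54 and −0.47 and the members lower at an unadjusted p under 0.05 between 39 and 48. In these settings 2.75% to 6.58% of all genes were lower at that p. Array weights let 3 members pass (Scarna6, Snord35b and Snord66). With them 12 of all 22184 genes passed, against 5 in the main fit. With every feature on its own the host median was −0.0057. Snora30 gave 0.12 with array weights and 0.012 with the replicate block.

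With each array left out in turn, 0 to 25 members passed, 39 to 53 were lower at an unadjusted p under 0.05 and 21 to 45 did not overlap. The highest value of each came without OC mutant 3. In these fits 2 to 44 of all genes passed, and 3.78% to 5.37% were lower at that p. Every OC mutant array lay below every control array for 2.24% to 3.85% of all genes. The median of the core proteins ran from −0.10 to 0.047, with 0.03 without control 1, 0.02 without control 4, 0.047 without OC mutant 1 and 0.02 without OC mutant 2. Snora30 ran from −0.12 to 0.12, Snord92 from −0.17 to 0.28, Snord85 from −0.089 to 0.20 and Snora35 from −0.0097 to 0.22. The cause was not tested.

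The replicate numbers did not pair the arrays: deviations of same-numbered arrays correlated at −0.38, −0.13, −0.39 and −0.16. With the number as a block on 8 arrays, 0 members passed and the median was −0.53. At an unadjusted p under 0.05, 39 members were lower, against 2.75% of all genes.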

Other observations

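Another 46 features carry several symbols of which at least 1 begins with Snord, Snora or Scarna, and they were not counted among the members. The 16 features of the imprinted Snord116 cluster held identical values, with a mean of 10.76 in OC mutants and 10.73 in controls and a difference of 0.04. Of the other 30 features 22 were negative and 4 had every OC mutant array below every control array, with a median difference of −0.19 and a range of −1.01 to 0.25. Over all genes 48.7% were negative, and 1.79% had every OC mutant array below every control array. A further 8 genes are typed as snoRNA in RefSeq under other symbols. Of these 4 were negative, and the median log2 fold change was −0.00. At an unadjusted p under 0.05 AF357355 and AF357399 were lower (25% of the 8, against 4.93% of all genes). AF357355 read 9.60, 9.21, 9.46 and 9.09 in OC mutants, against 10.05, 10.12, 9.72, 10.06 and 9.96 in controls, a log2 fold change of −0.64 (SE 0.12).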
